A study of Mus musculus with 49 samples.

Results

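Among 49 CT26 tumours, 12 carry the labels anti-PD-1 plus celecoxib and response R, and these 12 were divided by their level of Cxcl1. The level is the raw count of Cxcl1 over the library's total count, scaled to CPM, the unit of reads per fixed library size. The 6 tumours with the highest level, called Cxcl1-high here, were set against the 6 with the lowest, called Cxcl1-low. All 12 belong to 1 labelled group, so the division is by a measured value and by no treatment. The members of each set were chosen by their measured Cxcl1 counts, so Cxcl1 itself has no test.

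CT26 is a mouse colorectal carcinoma line, here grown in BALB/c mice, and RNA came from bulk tumours. Treatment began on day 7 after injection and was given for 7 days. Celecoxib, an inhibitor of the prostaglandin-making enzyme COX-2, was dosed at 30 mg/kg daily, and the antibody against the T cell receptor PD-1 at 200 µg in 2 doses. The 37 other tumours are 4 with the combination and response NR, 4 with anti-PD-1 and response R, 13 with anti-PD-1 and response NR, 7 with celecoxib (all NR) and 9 with vehicle (all NR). The labels do not define R and NR. For the day of collection the labels give 2 values, day 7 of treatment with the tissue and day 4 in the extraction protocol, and no source used here settles which holds. The labels do not say that each tumour came from another animal, so the p-values cover only variation among these libraries, part of which may be technical. Tumours are named below by numbers that follow the order of the labels.

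Cxcl1 is a secreted chemokine that binds the receptor CXCR2 and draws neutrophils into tissue. Mouse Cxcl1, Cxcl2, Cxcl3 and Cxcl5 are neighbouring genes for chemokines of this kind, and their transcription is known to follow NF-kB after interleukin-1, tumour necrosis factor or bacterial products. Tumour cells, fibroblasts, endothelium and myeloid cells can all make Cxcl1, and prostaglandin E2 is known to raise it in several cell types.

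The promoters of the sorting gene and of its 2 neighbours with an entry among RefSeq promoters (GRCm38.p6) are shown because they share a stretch of letters. Of the 4 chemokine genes, 3 had an entry. Each sequence runs 5′ to 3′ on the plus strand and covers 250 bases before to 50 after the start of transcription. Capitals mark GGAATTTCC, 1 spelling of the NF-kB motif. Only this spelling was searched, on both strands, and it was chosen with the results known.
Cxcl1, chr5:90890995-90891294: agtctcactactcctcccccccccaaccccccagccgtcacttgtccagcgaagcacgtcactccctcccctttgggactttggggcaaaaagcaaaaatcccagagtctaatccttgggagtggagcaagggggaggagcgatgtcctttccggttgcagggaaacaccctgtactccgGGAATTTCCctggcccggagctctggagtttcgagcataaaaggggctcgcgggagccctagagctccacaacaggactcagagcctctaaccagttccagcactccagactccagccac
Cxcl2, chr5:90903649-90903948: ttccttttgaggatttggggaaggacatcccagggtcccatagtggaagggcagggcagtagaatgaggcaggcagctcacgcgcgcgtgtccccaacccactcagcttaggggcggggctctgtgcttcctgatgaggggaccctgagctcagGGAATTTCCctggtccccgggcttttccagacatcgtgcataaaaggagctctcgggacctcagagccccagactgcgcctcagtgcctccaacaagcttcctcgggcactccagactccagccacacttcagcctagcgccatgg
Cxcl3, chr5:90785851-90786150: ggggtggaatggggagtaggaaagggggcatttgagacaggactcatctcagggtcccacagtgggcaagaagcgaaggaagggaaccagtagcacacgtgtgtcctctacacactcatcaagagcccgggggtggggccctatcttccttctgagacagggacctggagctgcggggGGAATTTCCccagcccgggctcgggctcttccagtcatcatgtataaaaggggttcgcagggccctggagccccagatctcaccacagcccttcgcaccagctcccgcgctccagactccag
The motif lay 70 bases before the start in Cxcl1, 96 in Cxcl2 and 72 in Cxcl3. Of 32851 promoters of the same length, 104 (0.317%) held it. A match is a description of letters and says nothing about binding in these tumours.

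Cxcl1 in the Cxcl1-high tumours was lowest at 15.5 CPM, with a median of 25.6 and a highest value of 69.2 CPM. In the Cxcl1-low tumours it was lowest at 6.99 CPM, with a median of 11.6 and a highest value of 14.4 CPM. Tumours 9 (69.2 CPM) and 10 (63.8 CPM) stood far above tumour 2 (31.1 CPM), while the other 9 lay between 6.99 and 20.1 CPM. At the threshold, tumour 1 on the high side had 109 reads of Cxcl1 (15.5 CPM, 95% exact binomial interval 12.7 to 18.7). Tumour 6 on the low side had 92 reads (14.4 CPM, interval 11.6 to 17.7). These intervals overlap, and they cover counting error only. The other combination tumours, labelled NR, had 4.5 to 7.92 CPM (median 6.10). Anti-PD-1 tumours had 7.92 to 21 CPM (median 16.4) with response R and 3.62 to 34 CPM (median 9.16) with response NR. Celecoxib tumours had 3.32 to 11.6 CPM (median 7.93) and vehicle tumours 6.64 to 15.3 CPM (median 9.59). The Cxcl1-low tumours overlapped every other labelled group, and 2 of the Cxcl1-high tumours lay above all the others in the series.

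**Figure D1:**
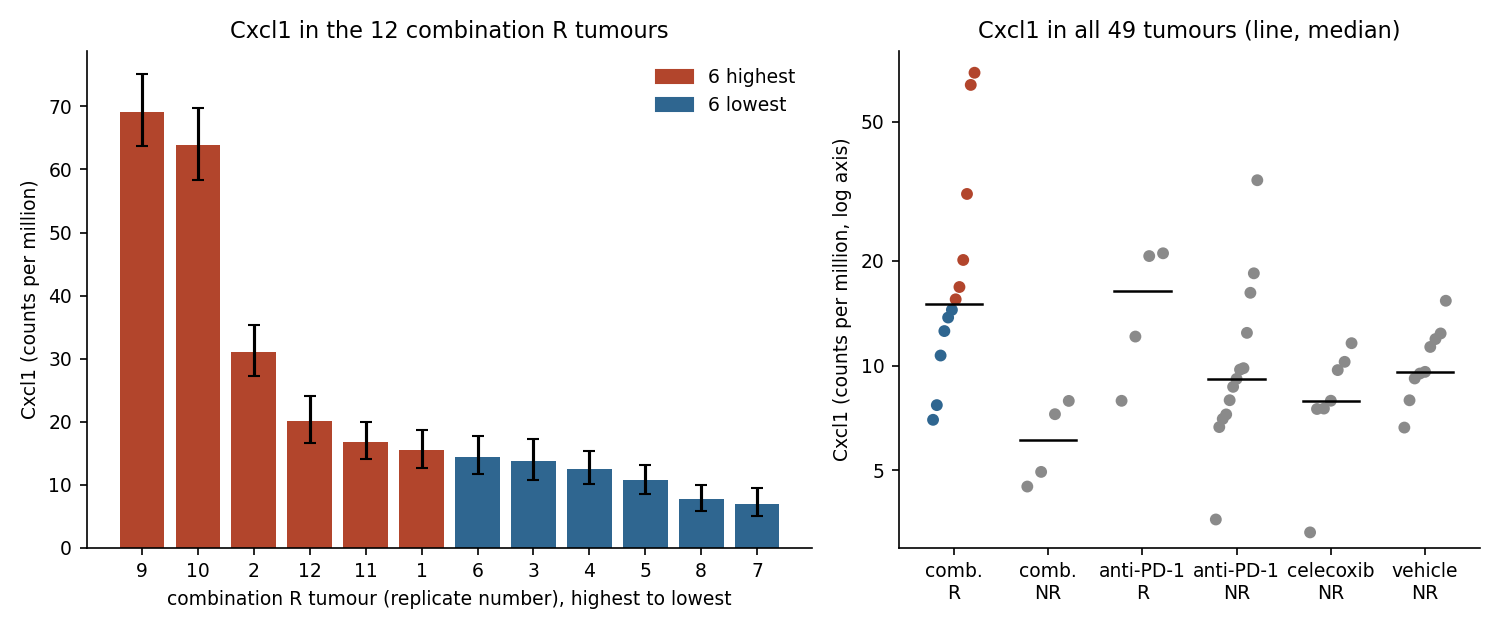
Left, Cxcl1 in each of the 12 combination R tumours in CPM, in order of level, with 95% exact binomial intervals. Right, Cxcl1 on a log axis in all 49 tumours by labelled group (comb., combination), with medians as lines. Tumours 9 and 10 reach 69.2 and 63.8 CPM, while tumours 1 and 6 on both sides of the threshold differ by less than their intervals.

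Total counts ran over 5315321 to 8325352 in the 12 tumours and 4251251 to 13671294 in all 49. No 2 libraries were identical. Skeletal muscle, fat or skin RNA stood out in 12 of the 49 libraries (list mean over 3 log2 CPM for muscle, or over 5 for skin or fat). Of these, 3 were Cxcl1-high (tumours 9, 10 and 11) and 1 was Cxcl1-low (tumour 4), all through muscle. Epithelial markers were sparse for a carcinoma. Epcam was at 0 in 3 of the Cxcl1-high and 5 of the Cxcl1-low tumours, and 5 of 10 colon epithelium markers passed the filter on low counts.

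With Cxcl1 left out, no gene passed the limit of 0.05 on the adjusted p between the 6 Cxcl1-high and the 6 Cxcl1-low tumours (edgeR quasi-likelihood test, Benjamini-Hochberg adjustment, 0 of 12570 genes, 0%). The smallest adjusted p was 0.271. At an unadjusted p under 0.05 there were 1336 genes (10.6%), 753 higher (5.99%) and 583 lower (4.64%) in the Cxcl1-high tumours. On the same samples and the same 12570 genes DESeq2 called 70 (39 higher, 31 lower) and limma-voom 0. A fit with all 49 tumours called 20 of 14246 (12 higher, 8 lower). Cxcl1 as a continuous measure over the 12 tumours called 109 of 13396 (59 higher, 50 lower). On simulated data of this size edgeR recovered 30.6% of genes set apart by 1 log2 unit and 87% of those set apart by 2. The values of named genes below are therefore measurements, with no gene called. Levels from here on are CPM on library sizes scaled by TMM, and differences are log2, Cxcl1-high minus Cxcl1-low, with their standard error (SE).

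The 5 named genes with the smallest p on the higher side were a stress chaperone, a chemokine, a growth factor binding protein and 2 enzyme genes, each with an adjusted p of 0.271. Cxcl12 (chr6:117168535-117181367), a stromal chemokine that binds CXCR4, had 40.0, 47.1 and 78.1 CPM as lowest, median and highest in the Cxcl1-high tumours, against 14.3, 25.2 and 33 CPM in the Cxcl1-low ones. Its sets did not overlap, and the difference was 1.12 (SE 0.24). Nudt18 (chr14:70577637-70582688), a hydrolase of oxidised nucleotides, had 11.1, 18.2 and 28.1 CPM in the Cxcl1-high tumours, against 5.56, 7.80 and 10.8 CPM in the Cxcl1-low ones. These sets were also apart, by 1.14 (SE 0.24). Of all tested genes, 40 (0.318%) had sets apart on the higher side and 55 (0.438%) on the lower side.

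Igfbp5 (chr1:72857932-72874884), which binds insulin-like growth factors, had 18.2, 32.8 and 96.3 CPM in the Cxcl1-high tumours, against 5.05, 12.4 and 19.8 CPM in the Cxcl1-low ones. Only the lowest Cxcl1-high tumour, number 1, fell under the highest Cxcl1-low tumour, number 8, and the difference was 1.86 (SE 0.40). Without the 4 muscle-rich libraries it was 1.09. Cryab (chr9:50751325-50756636), the small heat shock protein alpha-B crystallin, is abundant in muscle, and Cox6a2 (chr7:128205435-128206387) is the muscle form of a cytochrome c oxidase subunit. Cryab differed by 1.28 (SE 0.26) and Cox6a2 by 1.81 (SE 0.39). Both were highest in tumour 11, at 146 CPM for Cryab and 26.4 CPM for Cox6a2, and that library held the most muscle RNA of the 12. Without the muscle-rich libraries Cryab differed by 0.62 and Cox6a2 by 1.34.

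The 5 named genes on the lower side all had sets that did not overlap, again with an adjusted p of 0.271. Hmgcs1 (chr13:119690379-119708260), an early enzyme of cholesterol synthesis, had 41.6, 71.1 and 91.3 CPM in the Cxcl1-high tumours, against 116, 135 and 154 CPM in the Cxcl1-low ones. The difference was -0.91 (SE 0.18). Mcm7 (chr5:138164583-138172422), a subunit of the replicative helicase, had 154, 223 and 286 CPM in the Cxcl1-high tumours, against 337, 389 and 465 CPM in the Cxcl1-low ones. It differed by -0.85 (SE 0.18), and every Cxcl1-high tumour lay under every Cxcl1-low one. Dlgap5 (chr14:47387779-47418407), a mitotic spindle protein, differed by -1.0 (SE 0.21), and Pmepa1 (chr2:173224458-173276533), a feedback inhibitor induced by TGF-beta, by -1.15 (SE 0.23). Pmepa1 was close at the edge, with a highest Cxcl1-high value of 88.9 CPM and a lowest Cxcl1-low value of 89.8 CPM.

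Hist1h4d (chr13:23581598-23582735), a histone H4 gene, had 0.139, 0.963 and 1.93 CPM in the Cxcl1-high tumours, against 3.54, 5.75 and 8.32 CPM in the Cxcl1-low ones. The difference was -2.52 (SE 0.50). Replication-dependent histone genes are near-identical copies, so reads can be split or shared between them. Most of their mRNA ends in a stem-loop, whereas these libraries start from poly(A) tails, so the counts hold only the part that carries a tail. Hist1h2ab, Hist1h2an, Hist2h2ac, Hist1h2ae and Hist1h1d were named in the 37 other tumours, and in the 12 they differed by -2.32, -2.12, -2.02, -1.97 and -1.45. For Hist1h2ae the Cxcl1-high tumours had 1.0, 2.91 and 10.9 CPM, against 5.44, 17.4 and 23.4 CPM in the Cxcl1-low ones. Tumour 12 was the only Cxcl1-high tumour above the lowest Cxcl1-low one, number 4.

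**Figure D2:**
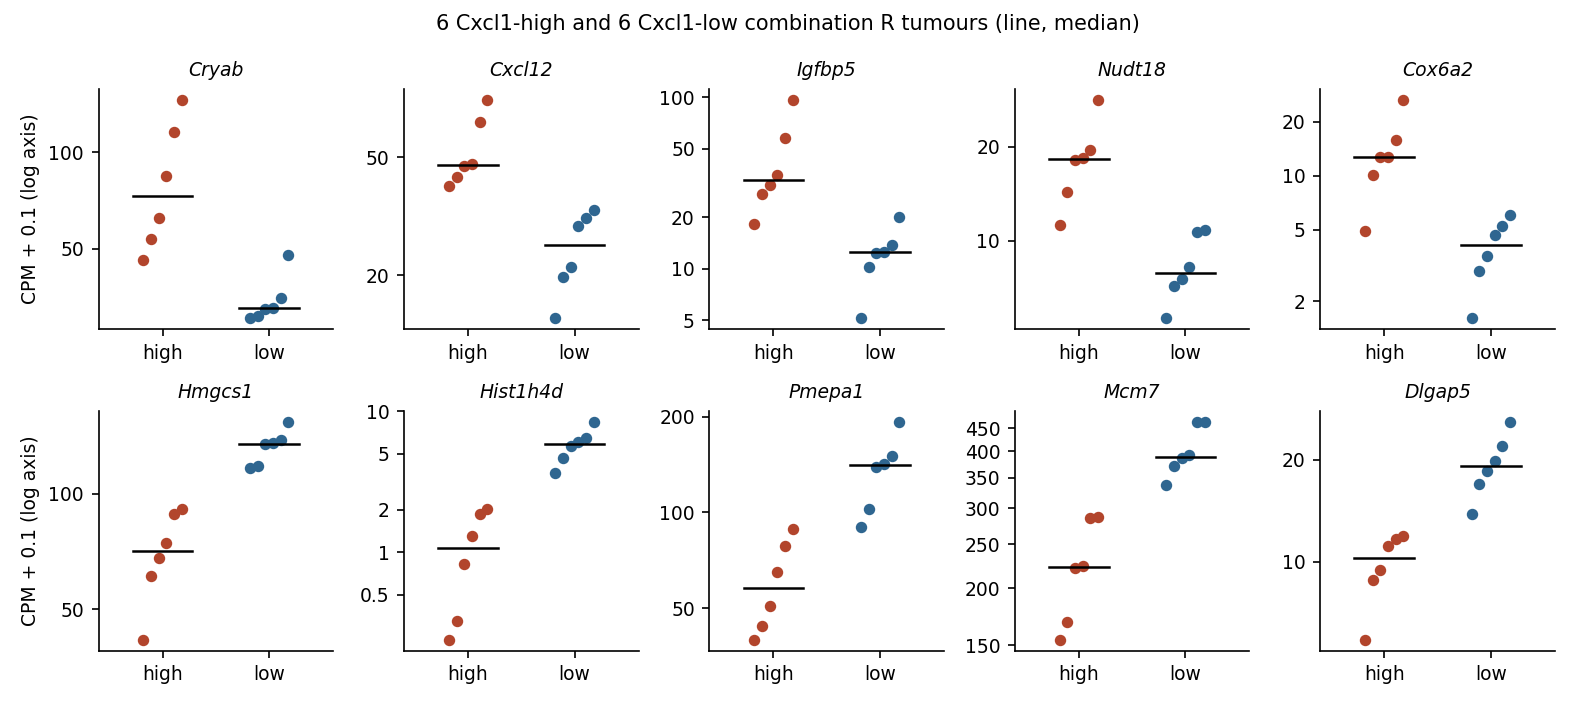
CPM plus 0.1 on log axes of 10 named genes, the 5 in each direction with the smallest p under the naming rule. Each tumour is 1 point, with Cxcl1-high (6 tumours) left of Cxcl1-low (6 tumours) and medians as lines. The upper panels show Cryab, Cxcl12, Igfbp5, Nudt18 and Cox6a2, and the lower panels, where the sets do not overlap, Hmgcs1, Hist1h4d, Pmepa1, Mcm7 and Dlgap5.

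The tested ligands of CXCR2 other than Cxcl1 differed from each other in their relation with Cxcl1. Cxcl2 (chr5:90903871-90905938) had 1.59, 4.49 and 26.9 CPM in the Cxcl1-high tumours, against 1.30, 3.19 and 4.29 CPM in the Cxcl1-low ones. Only tumours 10 (26.9 CPM), 9 (13.6 CPM) and 11 (6.05 CPM), the muscle-rich ones, lay above the Cxcl1-low range, and the difference was 1.62 (SE 0.65, adjusted p 0.427). Without the muscle-rich libraries it was -0.62, and without tumours 9 and 10 alone it was 0.07. The muscle-rich libraries include tumours 9 and 10, the highest of the 12 for Cxcl1. Muscle RNA and high Cxcl1 therefore cannot be told apart by leaving these libraries out. Cxcl5 had 3.24, 7.86 and 11 CPM in the Cxcl1-high tumours, against 3.82, 6.0 and 14.8 CPM in the Cxcl1-low ones, and differed by 0.07 (SE 0.37). Its highest value of all was in tumour 8, second from the bottom by Cxcl1. Cxcl3 and the receptor Cxcr2 were too low to test, with no tumour above 1.0 CPM for Cxcl3 or 0.416 CPM for Cxcr2. The 7 genes of the CXCR2 list are Cxcl2, Cxcl3, Cxcl5, Ppbp, Cxcl15, Cxcr1 and Cxcr2. Of these 3 were tested, and 2, Cxcl2 and Cxcl5, had positive differences. The third tested gene, not followed singly here, had a negative one. With Cxcl1 as a continuous measure over the 12 tumours, 1 of the 3 was called higher, beside 59 of all 13396 genes. In that fit Cxcl2 had a slope of 0.97 and Cxcl5 of -0.20.

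Neutrophil genes were divided. Clec4e (chr6:123281789-123289870), the lectin Mincle of activated myeloid cells, had 3.89, 14.8 and 66.9 CPM in the Cxcl1-high tumours, against 2.78, 5.46 and 7.52 CPM in the Cxcl1-low ones. Tumours 9, 10, 12 and 1 lay above every Cxcl1-low tumour and tumours 2 and 11 within their range. The differences were 2.19 (SE 0.60) for Clec4e and 1.75 (SE 0.53) for its neighbour Clec4d, with adjusted p-values of 0.311 and 0.324. They were 1.24 and 0.75 without the muscle-rich libraries, and 0.84 and 0.56 without tumours 9 and 10. Csf3r, the receptor for granulocyte colony-stimulating factor, differed by 1.16 (SE 0.59). S100a8 and S100a9, which together form calprotectin of neutrophils, differed by 0.33 (SE 0.46) and 0.72 (SE 0.50), and without the muscle-rich libraries by -0.43 and -0.0173. Both were low, at 1.07 to 5.92 CPM for S100a8 in the Cxcl1-high tumours and 1.15 to 4.57 CPM in the Cxcl1-low ones. Over the neutrophil list 9 of 11 tested genes had a positive difference, with a median of 0.72 beside 0.04 over all genes, and edgeR called 0. On the same 12 tumours DESeq2 called 1 of the 11 as higher, beside 39 of all 12570 genes. Cxcl1 as a continuous measure called 2 of 11 as higher, beside 59 of 13396. Summed neutrophil markers ran over 40.4 to 352 CPM in the Cxcl1-high tumours (median 211) and 87.5 to 152 CPM in the Cxcl1-low ones (median 116). In bulk RNA fewer cells of a type and less RNA per cell cannot be told apart.

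Among cytokines and NF-kB feedback genes, Sod2 (chr17:13006846-13040063), a mitochondrial superoxide dismutase, had 95.7, 186 and 277 CPM in the Cxcl1-high tumours, against 72.1, 88.2 and 102 CPM in the Cxcl1-low ones. Tumours 9, 10, 12 and 1 were above all Cxcl1-low tumours, tumours 2 and 11 were not, and the difference was 1.0 (SE 0.24, adjusted p 0.286). Tnfaip3, the NF-kB brake A20, differed by 1.57 (SE 0.50), Il1rn, the interleukin-1 receptor antagonist, by 0.97 and Relb, an NF-kB subunit, by 0.58. Il1b itself had 9.51, 27.4 and 40.3 CPM in the Cxcl1-high tumours, against 12.4, 22.2 and 28.5 CPM in the Cxcl1-low ones. These ranges overlapped widely, and Il1b differed by 0.23 (SE 0.30). Nfkbiz, an NF-kB co-factor, differed by -0.15 (SE 0.20) and Ccl2, a monocyte chemokine, by 0.71 (SE 0.50). Without tumour 9 alone Ccl2 differed by 0.0709. Il1a, Il6 and Csf3 were too low to test, and Csf3 was at 0 in all 12. Over the list 16 of 18 tested genes had a positive difference, with a median of 0.60 and 5 at an unadjusted p under 0.05. Without the muscle-rich libraries these counts were again 16 of 18 and 5, with a median of 0.49. Without tumours 9 and 10 they were 15 of 18 and 3, with a median of 0.30. With muscle and adipocyte covariates they were 16 of 18 and 2, with a median of 0.51. On the 12 tumours edgeR called 0 of the list. DESeq2 called 1 of 18 as higher, beside 39 of all 12570 genes. Cxcl1 as a continuous measure called 3 of 18 as higher, beside 59 of 13396.

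Ptgs2 (chr1:150100031-150108227) encodes COX-2, the target of celecoxib, which all 12 tumours received. It had 4.45, 39.8 and 74.7 CPM in the Cxcl1-high tumours, against 5.68, 9.34 and 21.8 CPM in the Cxcl1-low ones. Tumours 9, 10, 11 and 2 were above every Cxcl1-low tumour, while tumour 1 had the lowest level of the 12. The difference was 1.88 (SE 0.58, adjusted p 0.324). Without the muscle-rich libraries it was 0.21, and without tumours 9 and 10 alone it was 1.08. Ptgs1, the constitutive COX-1, differed by -0.72 (SE 0.18, adjusted p 0.296), and 7 of 15 tested genes of the prostaglandin list had positive differences (median -0.05), against 9 of 15 (median 0.0598) without the muscle-rich libraries. Nos2 (chr11:78920787-78960254), the inducible nitric oxide synthase, had 3.17, 6.27 and 86.7 CPM in the Cxcl1-high tumours, against 0.531, 2.41 and 5.31 CPM in the Cxcl1-low ones. Its difference of 3.14 (SE 0.86, adjusted p 0.311) came mainly from tumours 9 (86.7 CPM) and 10 (34.7 CPM). Without these 2 it was 0.86. With Cxcl1 as a continuous measure, these 2 tumours included, Nos2 passed the limit of 0.05. Arg1 and Vegfa, both linked with tumour-promoting inflammation, differed by 0.92 (SE 0.52) and 0.62 (SE 0.48). They were at -0.15 and -0.25 without the muscle-rich libraries, and Vegfa was at 0.0297 without tumour 11 alone.

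**Figure D3:**
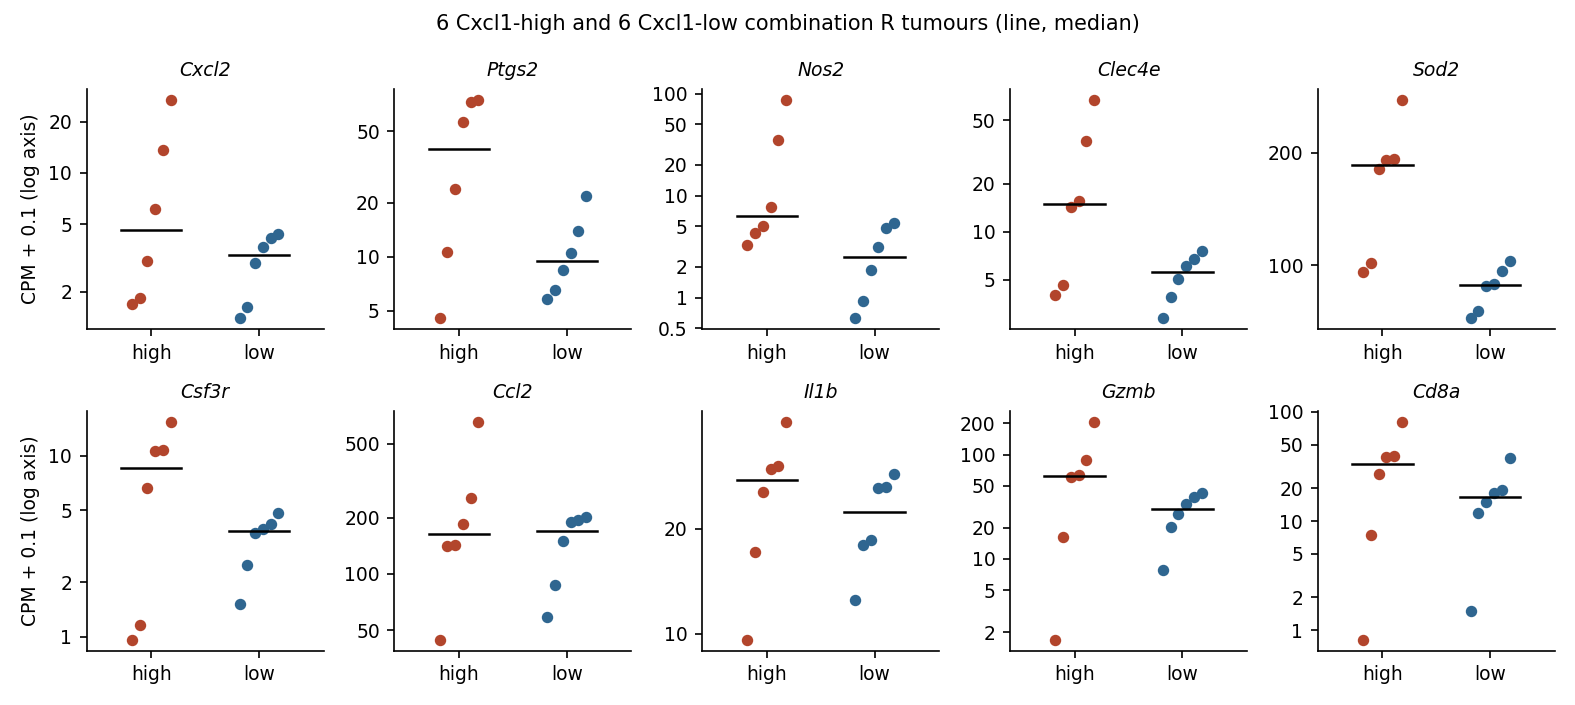
CPM plus 0.1 on log axes of 10 inflammation and lymphocyte genes, 1 point per tumour, with Cxcl1-high (6 tumours) left of Cxcl1-low (6 tumours) and medians as lines. The Cxcl1-high points spread more widely than the Cxcl1-low ones for Nos2 (3.17 to 86.7 CPM against 0.531 to 5.31 CPM), and the sets overlap in every panel.

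T cell genes were mostly higher in the Cxcl1-high tumours by edgeR, with tumour 11 as an exception, and not by limma-voom. With edgeR all 19 tested T cell markers had a positive difference (median 0.75), against 11 of 19 (median 0.14) with limma-voom on the same samples. By edgeR there was 1 at an unadjusted p under 0.05, Trbc2 (1.92, SE 0.76), a T cell receptor constant gene that shares sequence with Trbc1. Summed T cell markers were 15.1 to 801 CPM in the Cxcl1-high tumours (median 396) and 81.6 to 404 CPM in the Cxcl1-low ones (median 226). Tumour 1 was the highest, tumour 11 the lowest, and tumour 2 at 101 CPM was also under all but 1 of the Cxcl1-low tumours. Cd8a, which encodes a chain of the CD8 co-receptor, had 0.721, 32.9 and 81.1 CPM in the Cxcl1-high tumours, against 1.42, 16.4 and 37.8 CPM in the Cxcl1-low ones. It differed by 0.91 (SE 0.74), and Gzmb, the granule protease granzyme B, by 1.39 (SE 0.70). Limma-voom gave 0.36 for Cd8a and 0.50 for Gzmb, and edgeR gave 0.41 for Cd8a without tumour 1 and 0.72 for Gzmb without tumour 9. Ifng and the chemokine Cxcl9 that it induces differed by 0.84 (SE 0.67) and 0.25 (SE 0.48), and Cd274, which encodes PD-L1, by 0.29 (SE 0.47). Interferon-gamma targets had 23 of 30 positive differences (median 0.27) and type I interferon targets 9 of 22 (median -0.03). Of the type I interferon targets, 18 of 22 were positive without the muscle-rich libraries (median 0.35). Tumour 11 of the Cxcl1-high set and tumour 7 of the Cxcl1-low set were the lowest in both interferon lists, at 5.61 and 5.29 log2 CPM for the interferon-gamma list, where the other 10 had 7.15 to 8.0.

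Cell cycle genes leaned to the Cxcl1-low side. Of 23 tested, 2 had a positive difference (median -0.39), and 7 were at an unadjusted p under 0.05, all negative. Top2a, the topoisomerase of dividing cells, had 285, 646 and 748 CPM in the Cxcl1-high tumours, against 728, 997 and 1142 CPM in the Cxcl1-low ones, and differed by -0.79 (SE 0.24). Mki67, the Ki-67 antigen, differed by -0.67 (SE 0.17), both with adjusted p-values over 0.05. Of the 23, DESeq2 called 1 as lower on the same 12 tumours, beside 31 of all 12570 genes. Cxcl1 as a continuous measure called 3 as lower, beside 50 of 13396. The fit with all 49 tumours called 2 as lower, beside 8 of 14246. The list mean was lowest in tumour 10 (5.56 log2 CPM), and the other Cxcl1-high tumours had 6.60 to 7.06, against 6.77 to 7.23 in the Cxcl1-low ones. Without the muscle-rich libraries 5 of 23 were positive and the median was -0.14. Hypoxia and glycolysis genes were all positive, 23 of 23 with a median of 0.80 and 8 at an unadjusted p under 0.05, among them Slc2a1, a glucose transporter (1.47, SE 0.49), and Hk2, a hexokinase (1.08, SE 0.32). Without the muscle-rich libraries 19 of 23 were positive, with a median of 0.37. Endothelial markers had 12 of 15 positive differences (median 0.19), against 7 of 15 without tumours 9 and 10, and Vwf, the von Willebrand factor, differed by 1.70 (SE 0.45). Fibroblast markers had 5 of 14 positive (median -0.15) and macrophage markers 10 of 15 (median 0.10), against 3 of 15 with limma-voom (median -0.30).

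Muscle and fat RNA was spread unevenly over the 2 sets. All 16 tested skeletal muscle genes, of 23 on the list, had a positive difference, with a median of 3.39 and 15 at an unadjusted p under 0.05. Summed muscle markers were 81.8 to 4365 CPM in the Cxcl1-high tumours (median 673) and 80.9 to 564 CPM in the Cxcl1-low ones (median 94.1). Acta1, skeletal actin, had 1.06, 124 and 713 CPM in the Cxcl1-high tumours, against 1.01, 5.36 and 109 CPM in the Cxcl1-low ones. Tumours 11, 10 and 9 were the highest, yet tumours 12 and 1, both Cxcl1-high, were near the bottom, and the difference was 3.28 (SE 1.45). Of 14 adipocyte genes 7 were tested, with 6 positive, a median of 1.55 and 5 at an unadjusted p under 0.05. DESeq2 called 1 of these 7 and 1 of the 16 muscle genes as higher, beside 39 of all 12570 genes. Cxcl1 as a continuous measure called 2 of 10 adipocyte and 0 of 23 muscle genes as higher, beside 59 of 13396. In that fit 8 of the 10 adipocyte genes were higher at an unadjusted p under 0.05, beside 1063 of 13396. Adipocyte list means were 0.50 to 3.25 log2 CPM in the Cxcl1-high tumours and 0.37 to 1.51 in the Cxcl1-low ones, and 5 of the 6 Cxcl1-high tumours lay above all Cxcl1-low ones. Adipoq, the fat hormone adiponectin, was at 0 in 1 tumour of each set, numbers 1 and 3, and differed by 2.59 (SE 0.85). Skin markers summed to 24.3 to 105 CPM in the Cxcl1-high tumours and 42.2 to 116 CPM in the Cxcl1-low ones. The part of muscle and fat in the other differences was not tested beyond the values given here. With the muscle and adipocyte list means as covariates 0 genes were called, Ptgs2 differed by 0.19, Cxcl2 by 0.07 and Nos2 by 0.83. In the same fit Sod2 differed by 0.83, Cxcl12 by 0.78, Mcm7 by -0.73 and Hmgcs1 by -0.77, and 19 of 19 T cell genes were positive (median 1.0).

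**Figure D4:**
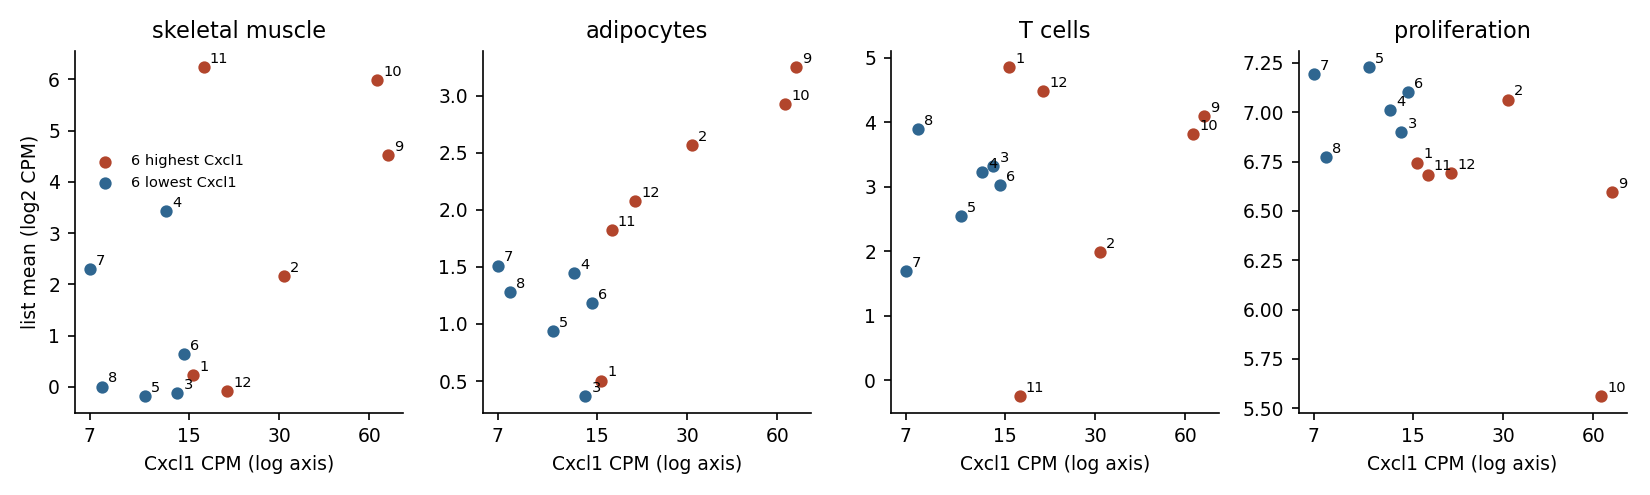
Mean log2 CPM of 4 marker lists against Cxcl1 in CPM (log axis) in the 12 tumours, which are numbered. Tumours 9, 10 and 11 of the Cxcl1-high set hold the most muscle RNA (list means 4.52 to 6.23), tumour 11 is lowest for T cells (-0.25) and tumour 10 for proliferation (5.56).

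The relation with Cxcl1 was then measured in the 37 tumours that the sorting had not used, as the slope on log2 Cxcl1 CPM plus 1 with the labelled group as a factor. Of 14008 genes 826 (5.90%) passed the limit, 218 with a positive slope (1.56%) and 608 with a negative one (4.34%). At an unadjusted p under 0.05 there were 3457 (24.7%). On simulated data of this size, with genes again drawn independently, 61% of slopes of 0.5 and 80.8% of slopes of 1 were recovered. The count rested on single libraries. Without anti-PD-1 NR tumour 2, which has the highest Cxcl1 of the 37 (34 CPM), it was 90, and without the libraries rich in muscle, fat or skin it was 87.

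The named genes with positive slopes included Cxcl13, a B cell chemokine (slope 1.5, SE 0.38), Cxcr3, a receptor of activated T cells (1.01, SE 0.25), Trbc1 (1.05, SE 0.27), Cd48, a leukocyte surface protein (0.89, SE 0.21), and Xcl1, a chemokine of cytotoxic lymphocytes (0.91, SE 0.27). Serpina3f, H2-K2, H2-T10, C1s2, Cd300c2 and Ly96 were also called, and the first 4 belong to families of similar copies between which reads may be shared. Nos2 had a slope of 0.97 (SE 0.25, adjusted p 0.019), Sod2 of 0.27 (SE 0.06, adjusted p 0.015), Clec4d of 0.54 (SE 0.16) and Ccl2 of 0.65 (SE 0.20). Without the libraries rich in muscle, fat or skin, Nos2 (1.13), Cxcl13 (1.84), Cxcr3 (1.04), Trbc1 (1.29), Clec4d (0.62) and Ccl2 (0.32) did not pass. Of the T cell list 20 of 20 slopes were positive (median 0.74, 1 called), beside a median of 0.00 over all genes. Cxcl2 and Ptgs2 did not pass, with slopes of 0.33 (SE 0.33, adjusted p 0.56) and 0.23 (SE 0.33, adjusted p 0.69). The T cell list mean as a covariate left Nos2 past the limit (slope 1.18) and took Sod2 (adjusted p 0.054), Cxcr3 (0.23) and Cxcl13 (0.34) out of it.

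The named genes with negative slopes included histone, cell cycle and keratinocyte genes. Hist1h2ab had a slope of -1.49 (SE 0.32, adjusted p 0.0087), Hist1h2ae of -1.18 (SE 0.26), Top2a of -0.34 (SE 0.06, adjusted p 0.0043), Mcm7 of -0.32 (SE 0.08), Mki67 of -0.35 (SE 0.10) and Cenpf, a kinetochore protein, of -0.26 (SE 0.07). Of the 23 cell cycle genes these 4 of the list were called, all negative (beside 4.34% of all genes), while 12 of 23 slopes were positive (median 0.01). Hmgcs1 had a slope of -0.37 (SE 0.11, adjusted p 0.033). Tec, a kinase, Supt20, a transcription co-activator subunit, Rybp, a Polycomb partner, and Ipo7, a nuclear import receptor, had slopes of -1.06 to -1.10. Dsp, a desmosome protein, Cdh1, E-cadherin, Trp63, a keratinocyte transcription factor, and Lgals7, a skin galectin, were negative too (-3.67, -1.48, -1.48 and -0.84). Dsp rested on celecoxib NR tumour 3, the highest at 333 CPM, without which its slope was -0.80 and it was not called. Without the libraries rich in other tissue, Top2a (-0.37), Hist1h2ae (-1.38), Sod2 (0.33), H2-K2 (1.29) and C1s2 (1.26) passed the limit, and Cdh1 (-0.49, adjusted p 0.45), Trp63 (-0.70, 0.30) and Lgals7 (-0.77, 0.089) did not. Dsp was too low to test there. Of 36 called genes followed through the other fits, 28 lost their call without these libraries. Among them were Mcm7 (-0.34), Hmgcs1 (-0.38) and Hist1h2ab (-1.33). Muscle genes had 2 of 23 positive slopes (median -1.63), the opposite side from the 12 tumours.

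These 37 tumours share no sample with the 12, so the directions were set side by side. Of 208 genes called with a positive slope and tested in both, 202 (97.1%) had a positive difference in the 12 tumours, beside 55% of all 12564 genes tested in both. Of 584 called with a negative slope, 59 (10.1%) had a positive difference. At an unadjusted p under 0.05 in the 12, 58 of the first and 106 of the second had the same sign and 0 the opposite one. Over all 12564 genes tested in both, 1075 at that p had the same sign and 260 the opposite one. Same signs thus prevailed among all genes at that p, called or not. With the libraries rich in other tissue left out on both sides, 18 of 18 genes called with a positive slope and 2 of 69 with a negative one had positive differences in the 12, beside 52.5% of all genes. Genes are not independent replicates, so these shares carry no test.

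A direct test of the slope in the 12 tumours minus the slope in the 37 called 0 of 14246 genes (0%) with edgeR. At an unadjusted p under 0.05 there were 1521 (10.7%), 976 higher (6.85%) and 545 lower (3.83%) in the 12, the smallest adjusted p was 0.114, and DESeq2 called 4. The genes with the smallest p on the higher side were Rora (0.94, SE of the difference in slopes 0.21), a nuclear receptor, Znrf1 (0.38), a ubiquitin ligase, Mafg (0.46), a partner of NRF2, Cd80 (0.88), a T cell co-stimulator, and Dsp (4.65). Without the libraries rich in other tissue these were 0.18 for Rora, 0.19 for Znrf1, 0.23 for Mafg, 0.74 for Cd80 and 2.44 for Dsp. Rora had 12.8, 16.7 and 40.6 CPM in the Cxcl1-high tumours, against 11.2, 14 and 16.5 CPM in the Cxcl1-low ones, and only tumours 10, 9 and 12 exceeded the Cxcl1-low range. On the lower side were Suv39h1, a histone methyltransferase (-0.40), Oip5 (-0.59), Fut11 (-0.35), Tmem119 (-0.61) and Kptn (-0.48). Without those libraries Oip5 was at -0.24, Tmem119 at -0.29 and Kptn at -0.48. Kptn (chr7:16119895-16127516), part of a complex that restrains mTORC1, had 5.99, 7.88 and 9.88 CPM in the Cxcl1-high tumours, against 11.7, 13.1 and 14 CPM in the Cxcl1-low ones. Its sets did not overlap in the 12, and its slope in the 37 was 0.20 (SE 0.09). Whether the relation of any gene with Cxcl1 is particular to the combination responders was thus not shown at this size.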

How the data were processed

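QuantSeq 3′ FWD libraries were made from RNA of 49 tumours and read the 3′ end of polyadenylated transcripts, per the labels' protocols. The deposited table holds raw counts per Ensembl gene (39179 genes, 37607 with a symbol), made by the authors with bcl2fastq, STAR, featureCounts and limma on mm10 and GRCm38, per the submitters' processing notes. The tools' versions, the annotation, the strand setting and the treatment of multi-mapping reads were not given in the sources used here. A deposited table of log2 CPM was not used.

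The tumours, the gene lists, the panel and the tests were chosen with earlier results of these data known. The 12 combination R tumours were ranked by Cxcl1 count over total count, and Cxcl1 was then removed from the genes. With library sizes scaled by TMM, 0 tumours changed side. Counts were fitted with edgeR 4.0.16 in R 4.3.3 (TMM, filterByExpr with a minimum count of 10, robust quasi-likelihood, Benjamini-Hochberg over all tested genes, limit 0.05). The 3 fits were the 6 against 6 tumours, the slope on log2(Cxcl1 CPM + 1) in the 37 others with the labelled group as a factor, and the difference of slopes over all 49. Standard errors are the log2 value over the root of its F statistic. Levels are CPM on TMM library sizes over the 49 libraries, and list means use log2 CPM with a prior count of 2. Gene symbols and coordinates came from the GENCODE annotation on GRCm38, and promoters from RefSeq on GRCm38.p6. The first 2 fits were tested on simulated counts, with each gene drawn independently from the real means and dispersions.

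Named genes are, per fit, up to 12 per direction with the largest fold among called genes averaging 2 CPM or more over the 12 tumours, or the 5 with the smallest p where fewer than 5 passed. Predicted genes, pseudogenes and receptor segments were left out. From each list with a called member the rule also takes 2 genes, those of smallest p, and it adds a panel of 25 genes. Some of these are summarised by their list. Tnfaip3, Il1rn, Relb, Ptgs1, Slc2a1, Hk2, Vwf, Mki67, Cenpf, Saa3, Mertk and Cx3cr1 were named after their values were seen. Lists have no set test. Alternatives were DESeq2 1.42.0, limma-voom (limma 3.58.1), RLE normalization, no filter, all 49 tumours in 1 fit, Cxcl1 as a continuous measure, leaving out ranks 6 and 7 or each tumour, muscle, adipocyte or clock measures as covariates, and leaving out libraries rich in other tissue. A T cell covariate and leaving out ranks 1 and 2 were added after seeing the data.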

Additional observations from a re-analysis of the deposited data

Results flagged for a closer look

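Within sets of 4 to 10 tumours, a value was listed here where its gap to the nearest other value was a large share of the set's range (Dixon's test at 95%). Of 158 sets of values tested, 15 had such a tumour, and chance lists about 1 in 20. No explanation was tested for any of them.

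Tumour 7 of the Cxcl1-low set accounted for 7. It was lowest for Cd274 at 3.47 log2(CPM + 1) (next 5.71), Cxcl9 at 6.39 (next 9.19) and Nfkbiz at 5.59 (next 6.30). Its list means were lowest for interferon-gamma targets at 5.29 log2 CPM (next 7.16), cytotoxic lymphocytes at 1.56 (next 2.86) and IL-1 and NF-kB targets at 3.39 (next 3.90), and highest for fibroblasts at 6.27 (next 5.77). Tumour 11 of the Cxcl1-high set accounted for 3, being lowest for interferon-gamma targets at 5.61 (next 7.15), monocytes at 3.74 (next 5.46) and B cells at -1.49 (next -0.23). Each set thus held 1 tumour apart from the others in the interferon-gamma list, with Cxcl1 at 16.8 CPM in tumour 11 and 6.99 CPM in tumour 7.

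Tumour 10 of the Cxcl1-high set had the lowest cell cycle list mean, 5.56 log2 CPM (next 6.60), and tumour 12 the highest Hist1h2ab of that set, 3.13 log2(CPM + 1) (next 1.29). In the Cxcl1-low set tumour 3 was highest for Cryab at 5.61 (next 5.17) and tumour 8 for S100a8 at 2.48 (next 1.61). Among the celecoxib tumours, number 3 had the lowest Cxcl1 at 2.11 log2(CPM + 1) (next 3.09), and that library is also rich in muscle and skin RNA.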

How the results depend on the processing

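Between the 6 Cxcl1-high and the 6 Cxcl1-low tumours the count of called genes was 0 as reported, with RLE normalization, without the filter, with limma-voom, with the muscle, adipocyte or clock covariates, without other-tissue libraries, without ranks 6 and 7 or 1 and 2, and without each tumour in turn (0 to 0). It was 70 with DESeq2, 20 with all 49 tumours in 1 fit and 109 with Cxcl1 as a continuous measure. For the slope in the 37 tumours the count of 826 became 1272 with DESeq2 and 87 without other-tissue libraries. Leaving out each of the 37 gave 90 to 1527, with 90 without anti-PD-1 NR 2, 363 without celecoxib NR 3, 532 without celecoxib NR 4, 520 without anti-PD-1 NR 10, 1246 without anti-PD-1 R 4 and 1527 without anti-PD-1 R 1. The difference of slopes called 0, 88 without the filter and 4 with DESeq2. For these counts the cause was not tested.

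In these fits the following values changed sign. With limma-voom Cxcl13 was at -0.60, Cxcr3 at -0.39 and Xcl1 at -0.75. Cxcl5 was at -0.20 with continuous Cxcl1, -0.14 without ranks 6 and 7 and -0.0332 with the clock covariate, and Nfkbiz at 0.0296 with continuous Cxcl1. With the muscle covariate Vegfa was at -0.40, Arg1 at -0.11 and Acta1 at -0.66. With the adipocyte covariate S100a8 was at -0.24, Arg1 at -0.0868, Mmp3 at -0.0634 and Adipoq at -0.57. With both, S100a8 was at -0.18, S100a9 at -0.00936, Arg1 at -0.31, Mmp3 at -0.0698, Acta1 at -1.05 and Adipoq at -0.56. Without other-tissue libraries Cxcl2 was at -0.62, S100a8 at -0.43, S100a9 at -0.0173, Vegfa at -0.25, Arg1 at -0.15 and Cd274 at -0.0388. Without ranks 1 and 2 S100a8 was at -0.34 and Cd274 at -0.21. Without each tumour in turn Cd274 ran over -0.10 to 0.46, Cxcl5 -0.0771 to 0.40, S100a8 -0.0771 to 0.68, Serpina3f -0.0011 to 0.57 and Xcl1 -0.41 to 0.48. In the 37 tumours the T cell covariate put Ifng at -0.14 and Cd8a at -0.0705. Of 36 called genes followed in the 37, 28 lost their call without other-tissue libraries and 30 without anti-PD-1 NR 2. Dsp, Nctc1 and Igkc were too low to test without other-tissue libraries and are not among the 28.

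No paired analysis was possible because the tumours' numbers follow the order of the labels and pair nothing. With 40 to 130 reads of Cxcl1 in 9 of the 12 tumours, the order of tumours 1 and 6 at the threshold is within counting error.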

Other observations

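Further lists were compared between the Cxcl1-high and the Cxcl1-low tumours, and edgeR called no member. On the same 12 tumours DESeq2 called 1 of 13 genes of the IL-6 list as higher, beside 39 of all 12570 genes. Cxcl1 as a continuous measure called 2 of the 9 tumour-promoting genes as higher, beside 59 of 13396. Among lists given further above, DESeq2 called 1 of 23 hypoxia and 1 of 15 endothelial genes as higher. It called 1 of 15 prostaglandin genes as lower, beside 31 of all genes. The continuous measure called 1 of 15 endothelial genes as higher. Genes of the IL-6 family and STAT3 had 11 of 13 positive differences (median 0.35), led by Saa3, an acute-phase protein (2.03, SE 0.47, adjusted p 0.271), while Socs3, the STAT3 feedback inhibitor, differed by 0.34 (SE 0.22). Cytotoxic lymphocyte genes had 15 of 17 (median 0.50), against 6 of 17 (median -0.26) with limma-voom, and dendritic cell and MHC class II genes 13 of 14 (median 0.56). H2-Aa, an MHC class II chain, had 264, 1688 and 3828 CPM as lowest, median and highest in the Cxcl1-high tumours, against 491, 798 and 2039 CPM in the Cxcl1-low ones. Tumours 11 and 2 were the lowest of the 12 for H2-Aa and tumours 1 and 12 the highest, all 4 Cxcl1-high. Monocyte markers had 3 of 7 positive (median -0.00075) and B cell markers 2 of 2 (median 0.54), against 1 of 2 with limma-voom. Macrophage markers were mixed in the Cxcl1-high tumours, with Mertk at 1.09 (SE 0.30), a receptor for dying cells, and Cx3cr1 at -1.29 (SE 0.39), the fractalkine receptor.

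Matrix protease genes had 7 of 12 positive differences (median 0.25), and Mmp3, stromelysin, differed by 0.23 (SE 0.32). Mitochondrially encoded transcripts had 1 of 7 positive (median -0.29), clock genes 11 of 16 (median 0.22), against 4 of 16 without the muscle-rich libraries (median -0.28), and colon epithelium markers 5 of 5 (median 0.79). The list of tumour-inhibitory inflammation had 10 of 14 positive in the 12 tumours (median 0.39), against 7 of 14 with limma-voom (median -0.034), and that of tumour-promoting inflammation 8 of 9 (median 0.71). In the 37 other tumours these 2 lists had 13 of 14 and 8 of 9 positive slopes. Without tumours 9 and 10 the second list had a median of 0.15, against 0.71 with them.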
